A study of Homo sapiens with 6 samples.

Results

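The 10 genes described here encode the machinery that licenses replication origins and turns the loaded helicase on: MCM2, MCM3, MCM4, MCM5, MCM6, MCM7, CDC6, CDT1, CDC45 and MCM10. They were picked by name for their role in this pathway, at a time when earlier results of these data were known, and no measured value enters the rule. All 10 were among the 16655 genes of the expression table, and all 10 were among the 13002 genes that passed the filter on low counts. With all 6 libraries none of the 10 was called different between the cells that expressed RfA1 and the control cells. Of all tested genes 0.0769% were called. The largest fitted difference among the 10 was a log2 fold change of -0.18, for CDT1. Without 1 library, RfA1 replicate 2, CDT1 was at -0.38 and both CDT1 and MCM5 were called lower. In that fit 11.5% of all tested genes were called lower.

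DNA is copied once per cell cycle because origins are prepared for copying in one phase and used in another. In G1 phase the origin recognition complex, CDC6 and CDT1 load the MCM2-7 complex, a ring of related ATPase subunits, around the DNA as an inactive helicase, a step called licensing. In S phase kinases, CDC45, the GINS complex and MCM10 convert it into the active CMG helicase, while degradation of CDT1 and its inhibitor geminin prevent a further round of loading. The genes of this machinery are classic targets of the E2F transcription factors, which the RB family of pocket proteins restrains. HEK-293T is a human embryonic kidney cell line that carries the large T antigen of SV40, a viral protein that binds the RB family, and it divides rapidly in culture.

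The comparison asked how expression of RfA1, a reflectin protein of squid skin, changed the transcripts of HEK-293T cells. Cells were transfected by lipofection with pEGFP-C1 that carried RfA1 fused to GFP (RfA1, n = 3) or with the empty pEGFP-C1, which expresses GFP alone (GFP, n = 3), and were harvested 24 h later. Both groups therefore carried the GFP vector and the large T antigen, the expression was transient, and no sort of the cells that took up the plasmid is described, so that each library pools transfected and untransfected cells. The labels number the libraries 1 to 3 in each group and do not say whether they came from separately handled cultures, so the p-values measure the spread between these libraries, which may be technical.

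The libraries held 10272304 to 11566287 counts. The 7 genes listed as known from HEK-293 cells ranged in the GFP libraries from VIM at 647 ± 60.7 TPM (SD, n = 3) to LIN28B at 17.4 ± 1.52 TPM and PAX2, the lowest, at 5.52 ± 0.864 TPM. The markers of leukocytes, hepatocytes, endothelium and breast epithelium that were in the table summed to 1.46 to 2.65 TPM per library. PTPRC, CDH5 and PECAM1 were at 0.05 TPM or less. The others reached up to 1.65 TPM for APOA1 (GFP replicate 2), 1.29 TPM for ESR1 (RfA1 replicate 1) and 0.62 TPM for ALB (GFP replicate 1). A trend with transcript GC content set the libraries apart. The first principal component of log2 CPM accounted for 44.6% of the variance, and across genes its loadings rose with the GC content (Spearman's rho 0.750). On that component RfA1 replicates 1 and 3 scored -16.5 and -22.0, whereas RfA1 replicate 2 scored 10.1 and lay beside GFP replicates 2 and 3 at 18.2 and 12.3. GFP replicate 1 scored -2.18. Where a call depended on RfA1 replicate 2, values with and without it are given.

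The E2F-type sites of the licensing promoters are shown because most of the licensing genes with a promoter window hold one, and the choice of genes did not use them. RefSeq promoter windows of GRCh38.p14 ran from 250 bases before to 50 bases after each transcription start. Windows of 8 of the 10 genes were searched on both strands for TTTCCCGC, TTTCGCGC, TTTGCCGC and TTTGGCGC. MCM4 was left out of this search, and MCM5 had no window. The count over all tested genes had no such omission. Matches on opposite strands may overlap, as they do in MCM2 and MCM6. At least 1 match was present for 6 of the 8 genes (MCM2, MCM3, MCM6, MCM7, CDC6 and CDT1), against 719 of the 10633 tested genes with a window (6.76%), and CDC45 and MCM10 had none in these windows. Counted by window, since a gene can have several, 1164 of all 35116 windows (3.31%) held a match. The stretches below are read 5′ to 3′ on the strand of the gene, with the matched letters in capitals. They lie at chr3:127598393-127598434 (plus strand) for MCM2, chr6:52284719-52284766 (minus strand) for MCM3, chr2:135876502-135876615 (minus strand) for MCM6, chr7:100101379-100101426 (minus strand) for MCM7, chr17:40287866-40287902 (plus strand) for CDC6 and chr16:88803734-88803781 (plus strand) for CDT1.
MCM2: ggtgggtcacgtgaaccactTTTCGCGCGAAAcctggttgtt
MCM3: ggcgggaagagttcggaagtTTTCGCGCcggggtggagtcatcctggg
MCM6: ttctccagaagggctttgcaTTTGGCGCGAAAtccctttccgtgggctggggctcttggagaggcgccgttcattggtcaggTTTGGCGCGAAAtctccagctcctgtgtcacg
MCM7: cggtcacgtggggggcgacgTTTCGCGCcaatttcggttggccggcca
CDC6: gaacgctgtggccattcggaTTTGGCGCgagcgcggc
CDT1: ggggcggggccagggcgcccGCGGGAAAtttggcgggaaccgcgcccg

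The printed matches of MCM2, MCM3, MCM7 and CDC6 began within 10 bases of the transcription start, and MCM3 and MCM7 each had 1 further match upstream that is not printed. Those of CDT1 and MCM6 lay further upstream, at position -35 for CDT1 and at -152, -148, -90 and -86 for MCM6, where the base before the start is position -1. The MCM6 stretch holds the same 12 letters at both of its places, a match on each strand at each. A match of letters is a description and does not show that a factor binds there.

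The licensing transcripts were present at very different levels, and their order was nearly the same with and without RfA1. Levels are compared between genes in TPM, a measure of transcript abundance that corrects for transcript length and sequencing depth. MCM7 was the most abundant, at 430, 426 and 416 TPM in the GFP libraries and 418, 424 and 404 TPM in the RfA1 libraries. CDT1 (261 ± 14.6 TPM in GFP) and MCM2 (255 ± 5.61 TPM) came next and could not be ordered, since CDT1 was above MCM2 in 3 of the 6 libraries. MCM3 (172 ± 5.69 TPM), MCM4 (150 ± 5.30 TPM) and MCM5 (143 ± 3.22 TPM) formed a middle group in which neighbours overlapped in range over the 6 libraries.

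Below them lay CDC45, which helps to form the active helicase, at 96.1 ± 3.03 TPM in GFP and 96.8 ± 9.01 TPM in RfA1. MCM6 (72.2 ± 9.88 TPM in GFP) and the loader CDC6 (67.6 ± 5.63 TPM) were the other neighbours that could not be ordered, with MCM6 above CDC6 in the 3 GFP libraries and below it in the 3 RfA1 libraries. MCM10 was lowest at 34.2 ± 2.61 TPM in GFP and 37.7 ± 2.68 TPM in RfA1. The 6 subunits of MCM2-7 stand in equal number in the ring, and their transcripts did not. MCM7 made up 34.8% ± 0.540 of their summed TPM in GFP and 34.8% ± 1.48 in RfA1, whereas MCM6 made up 5.92% ± 0.687 and 6.11% ± 0.691. Transcript levels are not protein levels, and TPM values depend on the transcript length that the authors used for each gene.

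**Figure D1:**
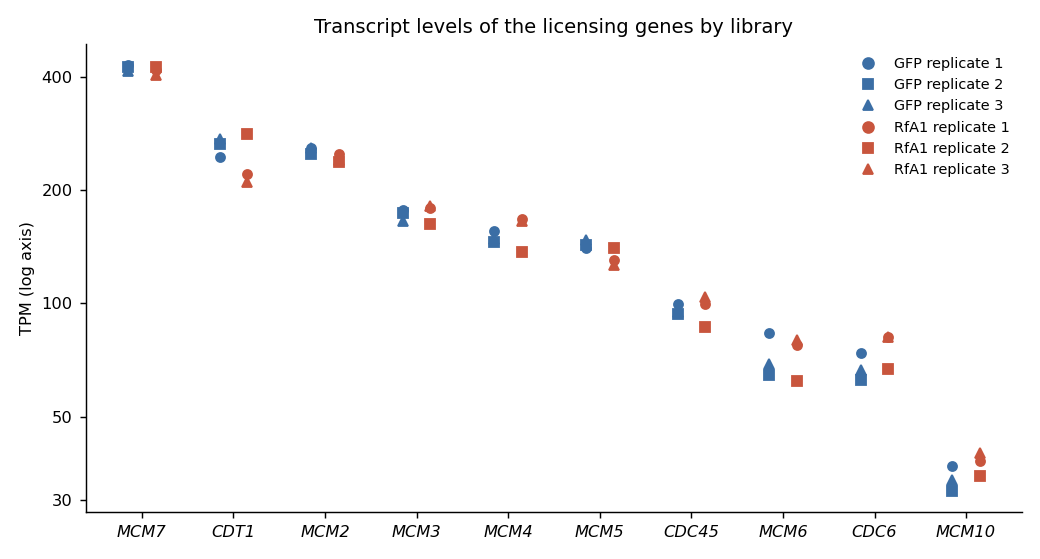
TPM of the 10 licensing genes (log axis) in each of the 3 GFP (blue) and 3 RfA1 (red) libraries, with 1 symbol per replicate number. MCM7 stands above the others at 404 to 430 TPM and MCM10 below them at 31.8 to 40.1 TPM. For each gene the difference between the groups is small beside this range of levels, though not beside the distance between some neighbouring genes.

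Between RfA1 and GFP cells, 0 of the 10 licensing genes were called by edgeR's quasi-likelihood test at an adjusted p of 0.05, where 0.0769% of all tested genes (10 of 13002) were called. At an unadjusted p of 0.05 the count was also 0 of 10, against 13.9% of all tested genes, and DESeq2 called 0 of the 10 as well. The log2 fold changes ran from -0.18 to 0.12, 8 of them below 0 and 2 above, with a median of -0.049 beside a median of -0.0024 over all tested genes. The 95% intervals of the fold changes together spanned 0.723 to 1.24, so a change of a licensing gene larger than that lies outside the intervals. A missed threshold does not show that the levels were equal. Differences between groups are given in CPM, counts scaled by the normalized library size, and in a bulk library fewer cells with a transcript and less of it per cell cannot be told apart.

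Of the helicase core, MCM2 (Gene ID 4171; chr3:127598223-127622436, plus strand) was the gene whose groups did not overlap. It had 588, 595 and 599 CPM in the GFP libraries and 540, 566 and 520 CPM in the RfA1 libraries. Each RfA1 library lay below each GFP library, which held for 1 of the 10 licensing genes and for 8.01% of all tested genes. The reverse, each RfA1 library above each GFP library, held for 0 of the 10 and for 9.86% of all tested genes. The log2 fold change was -0.13 (SE 0.072, adjusted p = 0.419 from edgeR). In TPM the groups overlapped, with RfA1 replicate 1 at 249.2 TPM and GFP replicate 2 just below it at 248.9 TPM. In GENCODE the exons of MCM2 share 1158 bases with TPRA1 and AC023593.1 on the opposite strand, and whether the counting used strand is not given in the sources used here.

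MCM5 (Gene ID 4174; chr22:35400063-35425430, plus strand), another subunit of the ring, had 317, 341 and 341 CPM in GFP and 282, 334 and 270 CPM in RfA1. RfA1 replicate 2 sat inside the GFP range and the other 2 RfA1 libraries below it. Its log2 fold change was -0.17 (SE 0.092, adjusted p = 0.411), the smallest p of the 10 genes before adjustment (0.0851 from edgeR's test). MCM7 (Gene ID 4176; chr7:100092728-100101940, minus strand) showed the same arrangement on a smaller scale, with 680, 709 and 672 CPM in GFP and 631, 703 and 606 CPM in RfA1. Its log2 fold change was -0.087 (SE 0.079, adjusted p = 0.617 from edgeR). MCM7 shares 392 exonic bases with AP4M1 on the opposite strand.

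The other 3 subunits differed by 0.044 or less on the log2 scale, and their groups overlapped. MCM3 (Gene ID 4172; chr6:52264009-52284881, minus strand) had 341, 363 and 333 CPM in GFP and 340, 338 and 342 CPM in RfA1, with a log2 fold change of -0.023 (SE 0.074). The RfA1 libraries lay closer to each other than the GFP libraries did. MCM4 (Gene ID 4173) had 424, 418 and 411 CPM in GFP and 436, 389 and 427 CPM in RfA1, with a log2 fold change of -0.00091 (SE 0.076). MCM6 (Gene ID 4175; chr2:135839626-135876426, minus strand) varied most for its level within the GFP group, at 208, 169 and 176 CPM, and had 184, 163 and 190 CPM in RfA1, with a log2 fold change of -0.044 (SE 0.098). Replicate 1 set the GFP spread of MCM6. The sign for MCM3, MCM4 and MCM6 turned positive on the log2(TPM + 1) scale, at 0.018, 0.058 and 0.018, on which the median of all tested genes was 0.045. The adjusted p of these 3 genes ranged from 0.850 to 0.996 in edgeR's test.

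The summed TPM of MCM2-7, the transcript pool of the helicase ring, was 1217 ± 24.8 in GFP and 1195 ± 29.1 in RfA1, so that the difference was smaller than the SD of either group.

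The factors that load the helicase pointed in opposite directions without passing the test. CDC6 (Gene ID 990; chr17:40287633-40304657, plus strand), the ATPase that opens the way for loading, had 157, 141 and 143 CPM in GFP and 167, 148 and 165 CPM in RfA1. RfA1 replicate 2 lay within the GFP range, and the log2 fold change of 0.12 (SE 0.085, adjusted p = 0.512 from edgeR) was the highest of the 10. CDT1 (Gene ID 81620; chr16:88803213-88809258, plus strand), the partner that brings MCM2-7 to the origin, had 421, 479 and 480 CPM in GFP and 364, 507 and 344 CPM in RfA1. The RfA1 group of CDT1 thus held both the lowest values and the highest value of the 6 libraries, and its log2 fold change of -0.18 carried the largest error of the 10 (SE 0.13, adjusted p = 0.516 from edgeR). CDT1 also had estimated counts that were not whole in some libraries, and these were rounded.

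The ratio of CDT1 to CDC6 in TPM was 3.32, 4.23 and 4.10 in GFP and 2.72, 4.22 and 2.59 in RfA1. RfA1 replicate 2 again stood with GFP replicates 2 and 3. The ratio of CDT1 to GMNN, the gene of its inhibitor geminin, was 1.24, 1.44 and 1.51 in GFP and 1.02, 1.43 and 0.899 in RfA1. In both ratios RfA1 replicates 1 and 3 were the lowest of the 6 libraries. The transcript of CDT1 has 64.9% GC, that of CDC6 45.5% and that of GMNN 43.6%, and a trend with GC content set the libraries apart. After the correction for GC content described below, the log2 fold changes were -0.014 for CDT1, 0.067 for CDC6 and 0.067 for GMNN. The part of GC content in these ratios was not tested.

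The genes that act when the loaded helicase is switched on showed small differences. CDC45 (Gene ID 8318; chr22:19479459-19520612, plus strand), a subunit of the active CMG helicase, had 115, 114 and 111 CPM in GFP and 109, 103 and 114 CPM in RfA1. Its log2 fold change was -0.054 (SE 0.078, adjusted p = 0.761 from edgeR), and on the log2(TPM + 1) scale it was 0.0063. MCM10 (Gene ID 55388; chr10:13161554-13211104, plus strand), which is needed for the helicase to start unwinding, had 114, 103 and 106 CPM in GFP and 112, 112 and 117 CPM in RfA1. Its log2 fold change was 0.079 (SE 0.077, adjusted p = 0.641 from edgeR), and the groups overlapped through GFP replicate 1. Despite its name, MCM10 is not a subunit of the MCM2-7 ring.

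**Figure D2:**
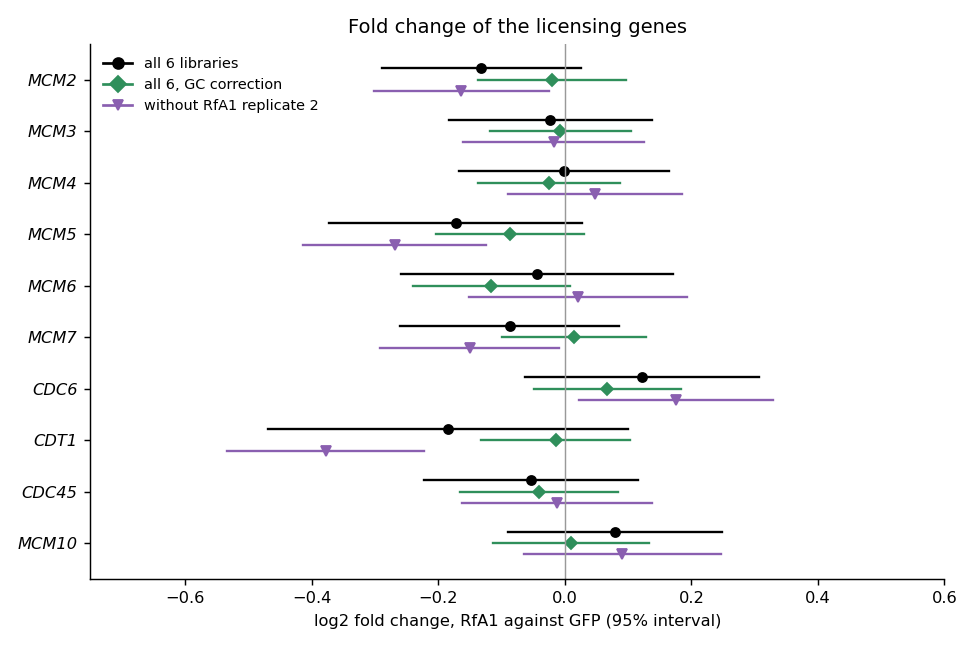
Log2 fold change of each licensing gene, RfA1 against GFP, with its 95% interval, from edgeR with all 6 libraries (black circles), after correction for transcript GC content (green diamonds) and without RfA1 replicate 2 (purple triangles). With all 6 libraries each interval includes 0, and without RfA1 replicate 2 the points of MCM5 (-0.27) and CDT1 (-0.38) lie furthest to the left.

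Within same-numbered libraries, MCM2, MCM5 and MCM7 were lower with RfA1 in 3 of 3 comparisons and CDC6 was higher in 3 of 3. The remaining 6 genes had mixed signs. The share of all tested genes with the same sign in 3 of 3 was not counted, so these counts have no background beside them. For CDT1 the log2 differences were -0.21, 0.080 and -0.48 for numbers 1, 2 and 3, so that number 2 differed in sign. For MCM5 they were -0.17, -0.031 and -0.34, for MCM2 -0.12, -0.073 and -0.20, for MCM7 -0.11, -0.013 and -0.15, and for CDC6 0.084, 0.070 and 0.21. In each of these 5 genes the difference for number 2 was the smallest in size and that for number 3 the largest. The values within a number are a description of these libraries, since the replicate numbers are not stated to mark cultures handled together.

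Seen per library, the licensing genes together took 0.339%, 0.336% and 0.335% of all counts in GFP and 0.323%, 0.328% and 0.316% in RfA1. Their mean log2 CPM relative to the GFP mean was 0.016, -0.0013 and -0.015 in GFP and -0.058, -0.027 and -0.072 in RfA1, so each RfA1 library lay a little below each GFP library. After the correction for GC content the same means were 0.040, -0.016 and -0.024 in GFP and -0.021, -0.023 and -0.023 in RfA1, and the groups overlapped. In TPM the summed levels were 1700, 1654 and 1672 in GFP and 1663, 1633 and 1635 in RfA1, which also overlapped.

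The differences among the licensing genes were related to the GC content of their transcripts, with MCM6 as an exception. CDT1 had the highest GC content at 64.9%, followed by MCM2 (58.1%), MCM7 (57.6%) and MCM5 (56.6%), and these were the 4 genes with the lowest log2 fold changes. MCM3 (51.6%), CDC45 (51.4%) and MCM4 (48.5%) lay between. CDC6 (45.5%), MCM10 (43.3%) and MCM6 (43.1%) had the lowest GC content, and the 2 positive log2 fold changes were among these 3. Over the 10 genes, which share their libraries, the log2 fold change and the GC content correlated with r = -0.843. All tested genes showed the same slope, with a median log2 fold change of 0.10 below 45% GC, 0.041 at 45 to 50%, -0.027 at 50 to 55%, -0.097 at 55 to 60% and -0.17 from 60% upward. CDT1, at -0.18, lay near the median of its own GC class, whereas MCM6, at -0.044, lay below the middle 50% of its class (0.0065 to 0.19).

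Single libraries showed the slope in opposite directions. Over the 10 genes, the difference of a library from the GFP mean correlated with GC content with r = -0.890 in RfA1 replicate 1 and -0.934 in RfA1 replicate 3, but with 0.490 in RfA1 replicate 2. In GFP replicate 1 it was -0.911, and in GFP replicates 2 and 3 it was 0.804 and 0.769. The differences of the GFP libraries from their own mean cancel out for each gene, so their slopes could not all have the same sign. The RfA1 libraries are not bound in this way. CDT1 and CDC6, at opposite sides of the GC range, moved oppositely over the libraries (r = -0.919, n = 6 libraries).

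**Figure D3:**
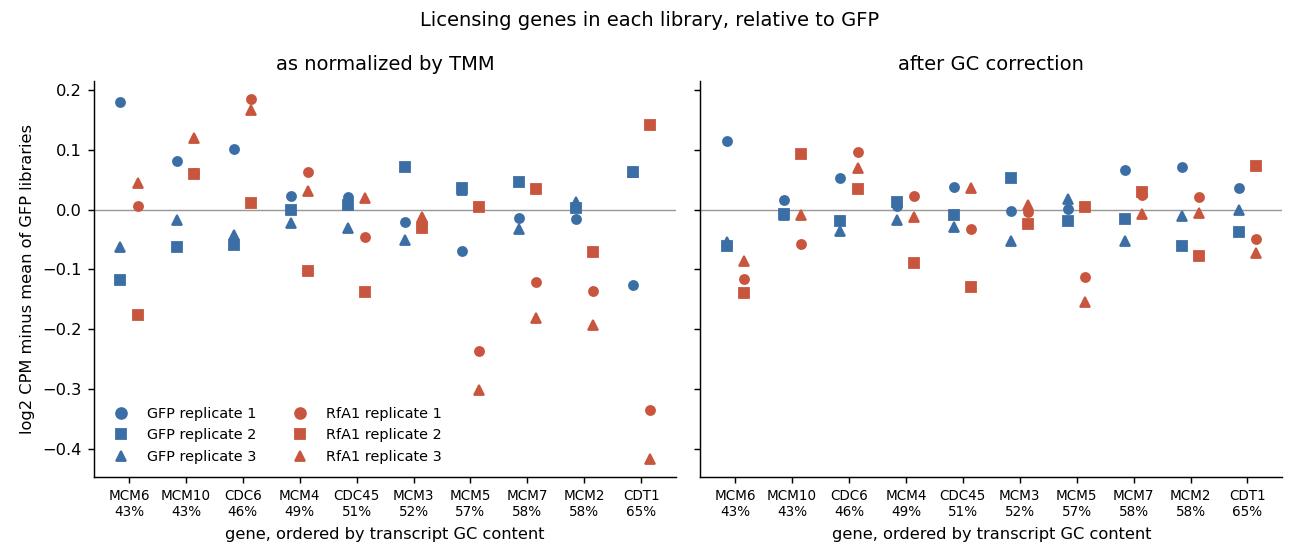
Log2 CPM of each licensing gene in each library minus the mean of the GFP libraries, with genes ordered from low to high transcript GC content, as normalized by TMM (left) and after correction for GC content (right). On the left RfA1 replicates 1 and 3 are at 0.0060 and 0.045 for MCM6, the gene with the lowest GC content, peak at 0.19 and 0.17 for CDC6 and reach -0.34 and -0.42 for CDT1, where RfA1 replicate 2 is at 0.14, and on the right the values of all 6 libraries run from -0.15 to 0.12.

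A fit in which each library was corrected for transcript GC content left the licensing genes between -0.12 (MCM6) and 0.067 (CDC6). Of the 10 genes 0 were called, against 1.59% of all tested genes (207), and 0 had an unadjusted p under 0.05. CDT1 was at -0.014 (SE 0.056) after the correction, MCM2 at -0.021 (SE 0.056), MCM7 at 0.015 (SE 0.054) and MCM5 at -0.086 (SE 0.056). The correlation of the fold changes with GC content was r = 0.0062. The correction removes the trend with GC content in each library by design, so a fall was built in. A true difference between the groups that followed GC content would be removed as well. MCM6, with low GC content, moved the other way, from -0.044 to -0.12 (SE 0.059), and had the smallest p of the 10 in this fit (0.0642 from edgeR, adjusted p = 0.346).

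Leaving out RfA1 replicate 2 was the one change in the choice of libraries that gave calls among the licensing genes. CDT1 then had a log2 fold change of -0.38 (SE 0.075, adjusted p = 0.00330 from edgeR) and MCM5 one of -0.27 (SE 0.070, adjusted p = 0.0121), so that 2 of the 10 genes were called lower, against 11.5% of all tested genes (1512 of 13129). Of the 10 genes 0 were called higher, against 8.56%. The RfA1 libraries left in this fit, replicates 1 and 3, were the closest of the 15 pairs of libraries (chi-square per degree of freedom 1.92). Against RfA1 replicate 2 they gave 11.3 and 14.0. The p-values of this fit therefore leave out most of the spread within the RfA1 group. The same limit holds for the other calls given without RfA1 replicate 2. Over the 16 alternative settings the adjusted p ranged from 0.00330 to 0.934 for CDT1 and from 0.0121 to 0.857 for MCM5, and in the 15 other settings neither was called. Without this library the correlation with GC content over the 10 genes was r = -0.918, and the median of all genes with at least 60% GC was -0.30. The part of GC content in the calls without RfA1 replicate 2 was not tested.

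**Figure D4:**
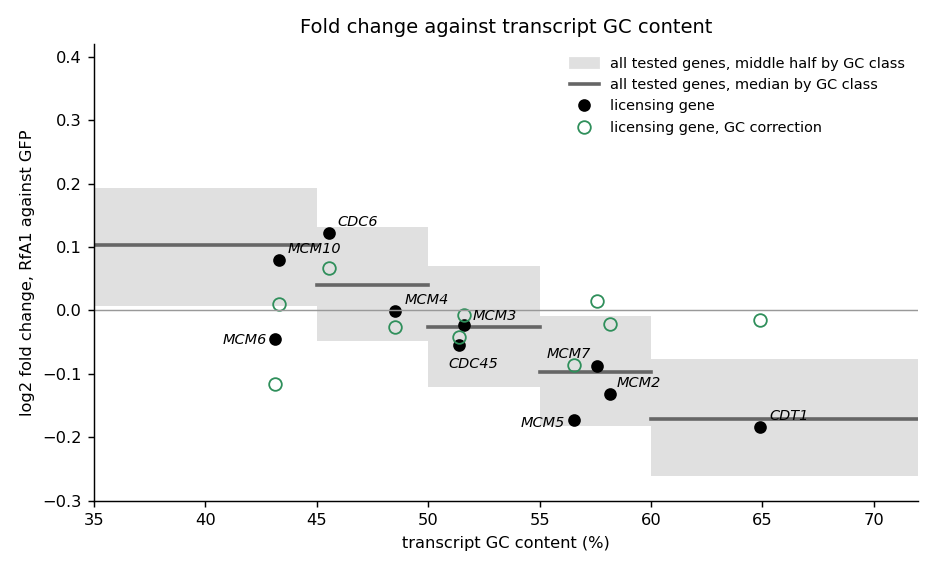
Log2 fold change against transcript GC content (%) for the 10 licensing genes, before (black) and after (green rings) the correction for GC content, over the median (grey line) and the middle 50% (grey band) of all tested genes in each GC class. Before the correction CDC6 is highest at 0.12 and CDT1 lowest at -0.18, while the medians of all genes go from 0.10 to -0.17, and MCM6 at -0.044 lies below the middle 50% of its GC class.

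The licensing genes did not vary as one unit over the 6 libraries. Of the 45 pairs of genes, 7 had a Pearson's r above 0.8 and 5 had one below -0.8, with a median of -0.015. MCM5 and CDT1 (r = 0.973), MCM5 and MCM7 (0.936), MCM7 and CDT1 (0.929) and MCM2 and MCM5 (0.924) were the closest pairs, all with more than 56% GC, and MCM5 and CDC6 (-0.939) were the most opposed. After the correction for GC content 1 pair was above 0.8 and 1 below -0.8. MCM5 and CDT1 still had r = 0.788, whereas MCM5 and MCM7 had -0.0023.

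The genes most like the licensing genes were sought among 10072 other genes with at least 10 CPM on average, by the correlation of their log2 CPM over the 6 libraries with the mean of the 10 genes. VPS37C came first (r = 0.988, Spearman's rho 1.0), followed by EME2 (0.987), C6orf47 (0.986), ZFPL1 (0.984) and CD2BP2 (0.982). In all, 39 genes reached 0.95. Without RfA1 replicates 1 and 3, the libraries farthest from the median, the correlations of the 5 genes were 0.987, 0.930, 0.945, 0.917 and 0.908. The libraries kept here had also entered the search, so these values are no independent check. How many genes would reach 0.95 by luck over 6 libraries was not estimated. Their transcripts have 57.0 to 70.3% GC, and none of the 5 belongs to the replication lists used here.

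The wider replication pathway was described with 7 lists of genes, in which 109 of 110 genes were tested. Without RfA1 replicate 2, 8.56% of all tested genes were called higher and 11.5% lower, 2636 of 13129 in all. In that fit 31 list genes were called, and those named below are given with that value. Higher and lower calls were 3 and 1 among the origin recognition genes and MCM relatives, and 2 and 1 in licensing control. They were 4 and 3 in origin firing, 2 and 3 at the fork, and 2 and 1 in nucleotide supply. The E2F and RB regulators had 3 and 1, and the genes of G2 and mitosis 3 and 2. The values that follow are with all 6 libraries unless stated. Of the 109, 0 passed the adjusted p, and 15 had an unadjusted p under 0.05 in edgeR's test, 11 higher and 4 lower with RfA1. That share of 13.8% was close to the 13.9% of all tested genes. Of the 7 medians, all were above 0, from 0.023 for the replication fork to 0.11 for the E2F and RB regulators, and the mean GC content of the lists was 44.9 to 48.4%, below the 52.1% of the licensing genes. After the correction for GC content the medians were between -0.017 and 0.073.

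Upstream of loading, the 11 tested genes of the origin recognition complex and MCM relatives had a median log2 fold change of 0.048, with 2 genes higher and 0 lower at the unadjusted p, where 949 of all 13002 tested genes were higher and 863 lower. ORC1, the ATPase subunit of the origin recognition complex, was at -0.019 (SE 0.091) and ORC6 at 0.064 (SE 0.080). ORC2, another subunit, had 46.4, 38.5 and 43.3 CPM in GFP and 53.2, 47.8 and 55.9 CPM in RfA1, groups that did not overlap, with a log2 fold change of 0.29 (SE 0.10, adjusted p = 0.278 from edgeR). MCMBP, which binds MCM proteins and helps to assemble and unload them, had 148, 134 and 136 CPM in GFP and 169, 157 and 161 CPM in RfA1 (log2 fold change 0.22, SE 0.079, adjusted p = 0.293 from edgeR). With all 6 libraries the higher RfA1 values of ORC2 and MCMBP did not pass the adjusted test. Without RfA1 replicate 2 they did, at 0.35 for ORC2 (adjusted p = 0.0134 from edgeR, range over the 16 alternatives 0.0134 to 0.748) and 0.24 for MCMBP (adjusted p = 0.0255, range 0.0255 to 0.762).

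Of the 10 genes that restrain licensing or degrade its factors, 8 had positive and 2 negative log2 fold changes, beside 6439 positive among all 13002 tested genes, and 0 passed. Their mean GC content was 46.2%, and the fold changes of all genes were higher at lower GC content. After the correction for GC content 7 of the 10 were positive, with a median of 0.039 against 0.054 before it. The part of GC content in these signs was not tested. GMNN, the CDT1 inhibitor, had 137, 133 and 128 CPM in GFP and 143, 142 and 152 CPM in RfA1 (log2 fold change 0.14, SE 0.077, adjusted p = 0.431 from edgeR). SKP2 and DTL, which direct the ubiquitin ligases that degrade CDT1, were at 0.081 (SE 0.083) and 0.018 (SE 0.090). Their groups overlapped.

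Among the 18 genes of origin firing, CCNE2, which encodes cyclin E2, a partner of CDK2 at the entry to S phase, stood apart from the rest by size. It had 19.0, 19.3 and 18.9 CPM in GFP and 28.2, 25.8 and 26.4 CPM in RfA1. The log2 fold change was 0.49 (SE 0.096, adjusted p = 0.156 from edgeR), and after the correction for GC content it was 0.37 and passed (adjusted p = 0.0460, range over the 16 alternatives 0.00355 to 0.662). Without RfA1 replicate 2 it was 0.52 (adjusted p = 0.00355 from edgeR). CCNE1 was at 0.17 (SE 0.10), and CDC25A, the phosphatase that activates CDK2, at 0.18 (SE 0.087). The subunits of the kinase that phosphorylates MCM proteins were at 0.25 (SE 0.081, adjusted p = 0.260 from edgeR) for DBF4 and 0.099 (SE 0.099) for CDC7. Of the GINS complex, the third part of the CMG helicase, GINS1 was at 0.049 (SE 0.095) and GINS2 at -0.18 (SE 0.087), and after the correction for GC content they were at -0.034 and -0.19. Without RfA1 replicate 2 the adjusted p from edgeR was 0.0159 for DBF4 (log2 fold change 0.29, range over the 16 alternatives 0.0159 to 0.746), 0.0300 for CDC25A (0.24, range 0.0300 to 0.829) and 0.0401 for GINS2 (-0.24, range 0.0401 to 0.833).

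At the fork and in nucleotide supply 0 genes passed with all 6 libraries. PCNA, the sliding clamp, was at 0.069 (SE 0.085) and POLA1, the catalytic subunit of the priming polymerase, at 0.055 (SE 0.10). RRM2, the small subunit of ribonucleotide reductase, was at 0.14 (SE 0.077) and TYMS, thymidylate synthase, at 0.011 (SE 0.082). DCK, deoxycytidine kinase of the salvage pathway, had 24.1, 19.5 and 21.6 CPM in GFP and 28.2, 27.5 and 31.7 CPM in RfA1, without overlap (log2 fold change 0.42, SE 0.11, adjusted p = 0.221 from edgeR). TOP2A and MKI67, which peak after S phase, were at 0.15 (SE 0.082) and 0.013 (SE 0.092). Without RfA1 replicate 2, DCK was called at 0.46 (adjusted p = 0.00852 from edgeR, range over the 16 alternatives 0.00852 to 0.701) and TOP2A at 0.21 (adjusted p = 0.0386, range 0.0386 to 0.866).

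E2F1 is an activating factor among the 17 regulators of the E2F and RB family. It had 130, 156 and 151 CPM in GFP and 113, 142 and 116 CPM in RfA1. Its groups overlapped, the log2 fold change was -0.24 (SE 0.10, adjusted p = 0.349 from edgeR), and after the correction for GC content it was -0.074, with 62.5% GC in its transcript. Without RfA1 replicate 2, E2F1 was called lower at -0.34 (adjusted p = 0.00808 from edgeR, range over the 16 alternatives 0.00808 to 0.807). E2F8, a repressor of the family, was at 0.17 (SE 0.087). CDKN1A, which encodes the CDK inhibitor p21, had 21.8, 26.9 and 28.3 CPM in GFP and 33.5, 32.7 and 33.5 CPM in RfA1, a log2 fold change of 0.37 (SE 0.11, adjusted p = 0.250 from edgeR). After the correction for GC content CDKN1A was at 0.49 and passed (adjusted p = 0.00865, range over the 16 alternatives 0.000396 to 0.725), and without RfA1 replicate 2 it was 0.38 (adjusted p = 0.0206 from edgeR). RB1, which was chosen after its values were seen, was at -0.18 (SE 0.11, adjusted p = 0.449) and passed lower after the correction, at -0.30 (adjusted p = 0.0429 from edgeR, range 0.0160 to 0.780). With RfA1 replicate 2 left out, RB1 was at -0.091 (adjusted p = 0.536 from edgeR) and was not called. That library had the lowest RB1 value, at 29.4 CPM. CCNE2, CDKN1A and RB1 were the genes called after the correction for GC content among the 109.

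Genes that share the E2F-type letters were also set beside the licensing genes. Of 10633 tested genes with a promoter window, 719 (6.76%) held at least 1 match. Their median log2 fold change was -0.015, against -0.0012 for all tested genes with a window, and 0 of the 719 passed the adjusted p. At the unadjusted p 14.7% of them were called, near the 13.9% of all tested genes.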

How the data were processed

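RNA-seq was compared between HEK-293T cells transfected with GFP-RfA1 (n = 3 libraries) and with GFP alone (n = 3), grouped by the sample labels. The authors deposited 1 table with estimated counts (expected counts, not normalized, 7.39% to 8.02% of them not whole), TPM and FPKM per library, and averages. The submitters' processing notes name HISAT and GRCh38.p13, and the counter, annotation and strand setting are not given in the sources used here. FPKM as deposited by the authors and the averages were not used. The TPM deposited by the authors served for levels between genes and as log2(TPM + 1) or log2(TPM + 0.1) in limma-trend.

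The estimated counts were rounded, filtered with filterByExpr (minimum count 10, minimum total 15; 13002 of 16655 genes), normalized by TMM and tested with the robust quasi-likelihood test of edgeR 4.0.16 in R 4.3.3, two-sided, with Benjamini-Hochberg adjustment over all tested genes at 0.05. Depth was 10272304 to 11566287 counts, and counting error enters through the counts. No library was a copy of another (chi-square per degree of freedom 1.92 to 17.3 over the 15 pairs). For the GC correction a spline (5 degrees of freedom) on the GC content of 1 GENCODE transcript per gene (98.3% of genes matched) was fitted in each library and used as an offset. Alternatives were other normalizations and filters, DESeq2 1.42.0, limma 3.58.1 on TPM, a replicate block, the GC correction and each library left out. The scripts were tested on simulated data. Figures were drawn with matplotlib 3.10.9.

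The members and the lists were chosen with earlier results of these data known. Outside the 10 genes, those named were fixed by role (ORC1, ORC6, MCMBP, GMNN, SKP2, DTL, DBF4, CDC7, GINS1, GINS2, CCNE1, CCNE2, CDC25A, PCNA, POLA1, RRM2, TYMS, E2F1, E2F8, CDKN1A, TOP2A and MKI67), or were list genes past the threshold with or without the replicate block, or the 5 genes most like the members. The exception was RB1, a list gene that met none of these rules and was added after its values were seen. Promoter windows came from RefSeq (GRCh38.p14), gene coordinates from GENCODE on GRCh38. The marker CD3E and plasmid transcripts were not analysed here.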

Additional observations from a re-analysis of the deposited data

How the results depend on the processing

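Over 16 alternatives the 10 licensing genes gave 160 values, of which 141 kept their sign and their side of the threshold, 2 became called and 17 changed sign, the largest of these at 0.058. The 25 other named genes gave 400 values, of which 356 kept both, 21 became called and 23 changed sign, the largest at 0.065 in size. No call among these was lost, since none was made with all libraries in the TMM fit. The count of licensing genes called stayed at 0 except without RfA1 replicate 2 (leave-one-out range 0 to 2).

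The number of all genes called was 10, and became 33 with DESeq2, 6 with upper-quartile normalization, 20 without a filter, 4 with each TPM pseudocount, 207 with the GC correction, 625 with the replicate block, 460 with both, and 0 to 2636 over the leave-one-out fits (0 without GFP replicate 2 or 3, 1 without GFP replicate 1, 2 without RfA1 replicate 1, 4 without RfA1 replicate 3, 2636 without RfA1 replicate 2). A fit with the library left out assumes that the remaining pair varies like the other group. In the 7 lists, calls went from 0 to 3 with the GC correction, 4 with the replicate block, 4 with both, and 0 to 31 over the leave-one-out fits. The median log2 fold change of the licensing genes was -0.017 with the GC correction, -0.018 with the correction and the block, 0.012 with either pseudocount on TPM, and -0.073 to -0.015 over the leave-one-out fits. The median of all tested genes was 0.045 on log2(TPM + 1) and 0.052 on log2(TPM + 0.1), above that of the licensing genes.

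Signs changed on log2(TPM + 1) and log2(TPM + 0.1) for MCM3 (0.018 and 0.018), MCM4 (0.058 and 0.058), MCM6 (0.018 and 0.019), CDC45 (0.0063 and 0.0063) and ORC1 (0.041 and 0.042). MCM4 was 0.0014 without a filter and 0.017 with total library size. With the GC correction, without and with the block, MCM7 was 0.015 and 0.015, SKP2 -0.0055 and -0.0042, DTL -0.065 and -0.065, CDC7 -0.0020 and -0.0013, GINS1 -0.034 and -0.034, POLA1 -0.020 and -0.020, and MKI67 -0.013 and -0.015. Leave-one-out ranges that crossed 0 were -0.048 to 0.014 for MCM3, -0.035 to 0.048 for MCM4, -0.10 to 0.050 for MCM6, -0.061 to 0.058 for ORC1, -0.049 to 0.095 for DTL, -0.0061 to 0.14 for POLA1, -0.052 to 0.043 for TYMS and -0.064 to 0.077 for MKI67. The cause of these changes was not tested.

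Same-numbered libraries deviated from their group means with correlations of 0.166, 0.321 and -0.143 across genes, and 3 of 6 libraries correlated best with their own number, so the numbers were not taken to pair the libraries. The replicate block called 0 of the 10 licensing genes, with adjusted p = 0.149 for MCM5 and 0.157 for CDT1 as the lowest from edgeR, and it called ORC2, CCNE2, DCK and CDKN1A in the 7 lists.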
